A study of Rattus norvegicus with 63 samples.

Results

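Lcn2, Havcr1, Spp1 and Timp1 are 4 genes whose transcripts serve as markers of injured kidney tubules. They are 4 of 10621 genes named on 2 array types, with the gene identifiers 170496, 286934, 25353 and 116510. All probe sets that carry these symbols were taken, 9 of the 24606 that remained after the control probe sets were left out. The main array type held 1 probe set for each gene. The second array type held 1 each for Lcn2, Havcr1 and Spp1 and a pair for Timp1. The genes were chosen by symbol and not by their level, and all 9 probe sets passed the filter on dim probe sets, which asks for a mean over all libraries. The untreated mean of Lcn2 on the main type lay just under that level and all its later means above it, while Havcr1 on the second type reached it at 2 h alone.

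The arrays measured total RNA of whole rat kidney. At 0 h the rats were killed untreated. The other animals were killed between 0.25 and 72 h after they had been injected with methylprednisolone, which activates the glucocorticoid receptor as a synthetic steroid. The main type covered 0, 0.25, 0.5, 0.75, 1, 2, 4, 5, 5.5, 6, 7, 8, 12, 18, 30, 48 and 72 h in 53 arrays of 52 libraries, with 4 untreated ones and 3 per later time. The second type covered 0 h with 4 libraries and 2 and 6 h with 3 each. The labels name no dose, strain, sex or hour of day, and no rats injected with vehicle were analysed here, so drug, injection, handling and hour of day cannot be told apart. They do not say whether numbered samples were separate animals, so every p-value measures the spread between these samples alone, which may in part be technical. In whole tissue, more cells of a type and more RNA per cell cannot be told apart either.

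Lcn2 encodes lipocalin 2 (neutrophil gelatinase-associated lipocalin), a secreted protein that binds iron-carrying siderophores. It is made by stressed distal tubules and by neutrophils, and its transcription follows inflammatory signals through NF-kappaB and C/EBP factors. Havcr1 encodes kidney injury molecule 1, a membrane receptor through which injured proximal tubule cells take up dying cells, and its outer part is shed into urine. Spp1 encodes osteopontin, a secreted matrix protein that binds integrins and CD44 and is already made by distal tubules of healthy kidney. Timp1 encodes a secreted inhibitor of matrix metalloproteinases.

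The deposited signals were linear intensities that had been scaled per array, with a mean, after trimming, between 150.03 and 150.04 on every main-type array. Precision is limited by the number of arrays. Differences are given on the log2(intensity + pseudocount) scale, which understates the change of dim probe sets. Some libraries stood apart from those of the same time. Fga, a fibrinogen chain gene that is no member, had a signal over 1000 in 11 of 52 libraries, and in 6 of these the other libraries of that time lay under 1000. The 6 are 0.25 h replicate 2, 0.5 h replicate 3, 1 h replicate 2, 5 h replicate 2, 7 h replicate 3 and 8 h replicate 1. They were picked after their values were seen, by a gene whose deviations within times followed those of Lcn2 (r = 0.90) and Timp1 (r = 0.88). Leaving them out therefore takes high values out of their own times and lowers the spread of the fit, so values and calls without them are a description.

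The promoters are shown because the 4 genes moved together within times, as described further on. Each is the RefSeq sequence of assembly GRCr8 from 250 bases before to 50 bases after the start site the table uses, 5′ to 3′ on the gene's strand. That start site lies within the annotated span of each gene. For Havcr1, Spp1 and Timp1 the whole window lies inside that span (31619914 to 31652955, 5613569 to 5620695 and 3766509 to 3772578). The stretches of those spans that precede the windows are not covered by the matches below. Capitals mark matches to any of the motifs named after the sequences.
Lcn2, chr3:36081731-36082030, minus strand: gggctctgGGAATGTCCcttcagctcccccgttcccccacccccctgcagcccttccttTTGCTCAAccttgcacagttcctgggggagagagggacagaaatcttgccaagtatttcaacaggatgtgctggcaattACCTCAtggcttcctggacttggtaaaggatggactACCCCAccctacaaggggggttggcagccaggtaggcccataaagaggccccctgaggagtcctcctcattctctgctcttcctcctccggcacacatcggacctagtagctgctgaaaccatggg
Havcr1, chr10:31629528-31629827, plus strand: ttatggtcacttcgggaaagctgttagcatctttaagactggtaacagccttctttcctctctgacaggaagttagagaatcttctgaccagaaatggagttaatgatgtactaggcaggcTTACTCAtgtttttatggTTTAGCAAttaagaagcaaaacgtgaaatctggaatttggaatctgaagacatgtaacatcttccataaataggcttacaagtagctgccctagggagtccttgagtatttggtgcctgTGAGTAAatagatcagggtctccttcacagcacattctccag
Spp1, chr14:5619755-5620054, minus strand: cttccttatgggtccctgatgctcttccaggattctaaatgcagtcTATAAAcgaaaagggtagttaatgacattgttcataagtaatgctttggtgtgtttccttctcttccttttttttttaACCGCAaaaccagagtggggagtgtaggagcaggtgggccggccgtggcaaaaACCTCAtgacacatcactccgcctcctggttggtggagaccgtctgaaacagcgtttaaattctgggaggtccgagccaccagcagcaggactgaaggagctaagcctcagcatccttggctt
Timp1, chrX:3771073-3771372, minus strand: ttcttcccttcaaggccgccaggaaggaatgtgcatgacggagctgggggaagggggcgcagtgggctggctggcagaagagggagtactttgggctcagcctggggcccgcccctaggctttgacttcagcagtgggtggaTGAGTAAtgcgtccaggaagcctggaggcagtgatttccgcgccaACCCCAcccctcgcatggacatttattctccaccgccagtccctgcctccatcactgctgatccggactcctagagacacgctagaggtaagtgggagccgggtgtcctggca
Motifs were searched on both strands as exact letters, and no marked matches overlapped. The NF-kappaB letters GGAANNNCC matched once in Lcn2, at -242 to -234 from the start site, and occur in 18.3% of 33469 promoters of this length. The C/EBP letters TTGCNNAA matched in Lcn2 at -191 to -184 and in Havcr1 at -111 to -104, against 10.6% of promoters. An AP-1 variant, TGAGTAA, matched in Havcr1 at -129 to -123 and at 8 to 14 and in Timp1 at -108 to -102, against 2.9%. The RUNX letters TGNGGT matched in Lcn2, Spp1 and Timp1 and occur in 47.1% of promoters, and TATAAA matched in Spp1 at -204 to -199 (14.2%). The glucocorticoid receptor letters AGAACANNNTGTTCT (0.0149%) and AGAACA (20.7%), the STAT letters TTCNNNGAA (8.87%) and the AP-1 letters TGANTCA (7.33%) had no match in the 4 windows. No motif was shared by all 4 genes, and a match is a description of letters, not of a bound site.

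Lcn2 showed the largest change of the 4 genes. Its signals at 0 h were 80.5, 47.2, 24.2 and 58.0. They were 223, 805 and 55.1 at 0.25 h, 111, 147 and 694 at 0.5 h, 88.9, 121 and 105 at 0.75 h and 109, 1209 and 65.8 at 1 h. In the first hour 10 of 12 libraries lay above every untreated library, and the 3 highest, at 694, 805 and 1209, were ones that stood apart. Such counts against the untreated libraries are descriptions, here and below, since the share over all probe sets was not counted. At 2 h the signals were 1410.0, 390.3 and 1540.0, and at 4 h they were 1733, 1855 and 2053. All 6 libraries of 2 to 4 h lay far above the highest untreated library, and those of 4 h lay close together.

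At 5, 7 and 8 h single libraries lay far above the others of their time, as at 0.25, 0.5 and 1 h. At 5 h arrays a and b of replicate 1 read 210.2 and 186, replicate 2 read 3970.4 and replicate 3 read 213. The signals were 400.4, 548 and 959 at 5.5 h, 927, 172 and 269.9 at 6 h, 268, 255 and 3122 at 7 h and 3158, 172 and 212 at 8 h. All 15 libraries of 5 to 8 h stayed above every untreated library, yet they spanned 172 to 3970.4. At 12 h the signals were 399.6, 51.3 and 191, at 18 h 149.8, 95.2 and 79.5, and at 30 h 249, 48.8 and 66.5. At 48 h they were 169.8, 75.6 and 83.3 and at 72 h 77.2, 49.5 and 76.7, and there all 3 libraries lay within the range of the untreated ones.

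In the limma fit over all 17 times Lcn2 rose by 4.57 ± 0.83 (SE) at 2 to 4 h, 23.8-fold (adjusted p = 0.000145, 6 libraries against 4). It rose by 3.20 ± 0.72 at 5 to 8 h, 9.19-fold (adjusted p = 0.0021, 15 against 4). Without the 6 libraries that stood apart the second value was 2.42 (adjusted p = 6.19e-05). The differences of 1.75 ± 0.74 at 0.25 to 1 h, 1.28 ± 0.83 at 12 to 18 h and 0.74 ± 0.77 at 30 to 72 h did not pass the test (adjusted p = 0.579, 0.941 and 0.951), and the first of these was 1.01 without the 6 libraries. Of the single times, Lcn2 passed at 2, 4, 5, 5.5 and 7 h, with differences of 4.08, 5.06, 3.32, 3.42 and 3.43. The 4 h call held whichever library was left out. The 2 h call was lost when its replicate 1 or its replicate 3 was left out (highest adjusted p = 0.0689), and the 5.5 h call without any 1 of its own libraries or untreated replicate 2 or 3 (highest 0.125). The calls at 5 and 7 h were lost without 0 h replicate 2, 3 or 4, and without 5 h replicate 2 (1.92, adjusted p = 0.461) and 7 h replicate 3 (2.25, adjusted p = 0.485). With all 6 libraries that stood apart left out, 5 h did not pass (adjusted p = 0.0695), 7 h did at the same 2.25 (adjusted p = 0.0393), and 6 h was gained at 2.67 (adjusted p = 0.000908). Lcn2 was the only member to pass the F test over all 16 differences from 0 h (adjusted p = 0.0041), a test that 16.1% of all probe sets passed.

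Among the libraries that did not stand apart, the highest Havcr1 signal was at 2 h (838) and the highest Lcn2 signal at 4 h (2053). Over all libraries the highest Havcr1 signal was at 7 h (2029) and the highest Lcn2 signal at 5 h (3970.4). The order of the genes in time was not tested. At 0 h the Havcr1 signals were 217, 59.6, 51.9 and 48.7. Replicate 1 thus lay far above the other 3 untreated libraries. Signals were 613, 441 and 46.2 at 0.25 h, 149.7, 134 and 574 at 0.5 h, 87.9, 111 and 253 at 0.75 h and 179, 125 and 59.2 at 1 h. At 2 h they were 649.6, 322 and 838, all above every untreated library. At 4 h they were 173, 121 and 147, all within the untreated range.

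Later Havcr1 was high in single libraries. At 5 h replicate 1 read 88.2 and 64.2 on its arrays, replicate 2 read 1813 and replicate 3 read 53.2. At 7 h the signals were 17.1, 42.5 and 2029, the lowest and the highest Havcr1 signal of all 52 libraries, and at 8 h they were 502, 79.7 and 61.7. These 3 high libraries are the ones that stood apart, and no other library from 4 to 8 h lay above the untreated ones. The 5.5 h libraries read 101, 87.6 and 139 and the 6 h libraries 100.2, 40.9 and 73.2. From 12 to 72 h all 15 libraries lay between 26.3 and 204, below the highest untreated library.

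The Havcr1 difference of 1.80 ± 0.84 at 2 to 4 h, 3.49-fold, did not pass the limma test in the fit over all times (adjusted p = 0.172, 6 libraries against 4). It was the same value with adjusted p = 0.0124 without the 6 libraries that stood apart, 0.00462 when the window was fitted with 0 h alone, and 2.07 with adjusted p = 0.00232 under array weights. At 2 h alone the difference was 2.75 ± 0.99 (adjusted p = 0.125), and without the 6 libraries its adjusted p was 0.00202, as a description. At 5 to 8 h the difference was 0.61 ± 0.73 (adjusted p = 0.684) and changed sign, to -0.27, without those libraries. Differences of 1.07 at 0.25 to 1 h (0.78 without them), -0.41 at 12 to 18 h and 0.00 at 30 to 72 h also missed the threshold (adjusted p = 0.868, 0.990 and 0.999).

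Spp1 was bright in untreated kidney already, with signals of 2218, 1026, 570.2 and 354 at 0 h. In the first hour the lowest, median and highest of 12 libraries were 685, 2516 and 5892. At 2 h the signals were 3719, 3574 and 4778 and at 4 h 3800.4, 3637 and 3964. These 6 libraries lay within a narrow band above every untreated library. At 5 to 8 h the 15 libraries ran from 477 to 6018 with a median of 1697, and 7 of them lay above the untreated range. At 12 to 18 h the lowest, median and highest of 6 were 563, 1221 and 2439, and at 30 to 72 h those of 9 were 557, 1178 and 4160.1, the last in 30 h replicate 1.

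Spp1 rose by 2.23 ± 0.60 at 2 to 4 h, 4.68-fold (limma, adjusted p = 0.0123, 6 libraries against 4). The call was lost without 0 h replicate 4 (1.83, adjusted p = 0.0808) and without 0 h replicate 3. With the library number as a block in the fit the call was lost likewise (1.83, adjusted p = 0.0664). In that fit 0 h replicate 4 has a number of its own and drops out too, so this is no separate loss. Alone, the 4 h libraries gave 2.19 ± 0.71 (adjusted p = 0.0356), and the 2 h libraries gave 2.26 ± 0.71 (adjusted p = 0.0641). The 4 h call was lost when any 1 of its own libraries, or untreated replicate 3 or 4, was left out (highest adjusted p = 0.119). As a description, the 2 h difference passed without the 6 libraries (adjusted p = 0.0137). The differences of 1.55 ± 0.54 at 0.25 to 1 h and 1.29 ± 0.53 at 5 to 8 h did not pass (adjusted p = 0.339 and 0.124), and without the 6 libraries they were 1.24 and 0.86. Those of 0.48 at 12 to 18 h and 0.52 at 30 to 72 h did not pass either (adjusted p = 0.988 and 0.952).

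Timp1 followed a similar course. At 0 h it read 132, 100.3, 69.5 and 66.8. At 0.25 h the signals were 288, 580.5 and 108, at 0.5 h 162, 132 and 547, and at 1 h 139, 519 and 76.2. At 2 h they were 421, 206 and 570.5 and at 4 h 385, 332 and 381, again above every untreated library. At 5 to 8 h the lowest, median and highest of 15 libraries were 61.0, 155 and 905. At 12 to 18 h the 6 libraries lay between 61.2 and 129, and at 30 to 72 h the 9 lay between 25.2 and 172.

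Timp1 rose by 1.96 ± 0.55 at 2 to 4 h, 3.88-fold (limma, adjusted p = 0.0164, 6 libraries against 4). This call was lost without 0 h replicate 3 (adjusted p = 0.0585) and without 0 h replicate 4. With the library number as a block in the fit, where 0 h replicate 4 drops out too, the call was lost likewise (1.83, adjusted p = 0.0603). At 4 h alone the difference was 1.95 ± 0.65 (adjusted p = 0.0403) and at 2 h 1.96 ± 0.65 (adjusted p = 0.0852). The 4 h call was lost on leaving out any 1 of its own libraries or untreated replicate 2, 3 or 4 (highest adjusted p = 0.12). Without the 6 libraries the 2 h difference passed, as a description (adjusted p = 0.000343). The differences of 1.06 ± 0.49 at 0.25 to 1 h, 0.93 ± 0.48 at 5 to 8 h, -0.19 at 12 to 18 h and 0.18 at 30 to 72 h did not pass (adjusted p = 0.694, 0.251, 0.999 and 0.986). The first and second were 0.58 and 0.42 without the 6 libraries.

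**Figure D1:**
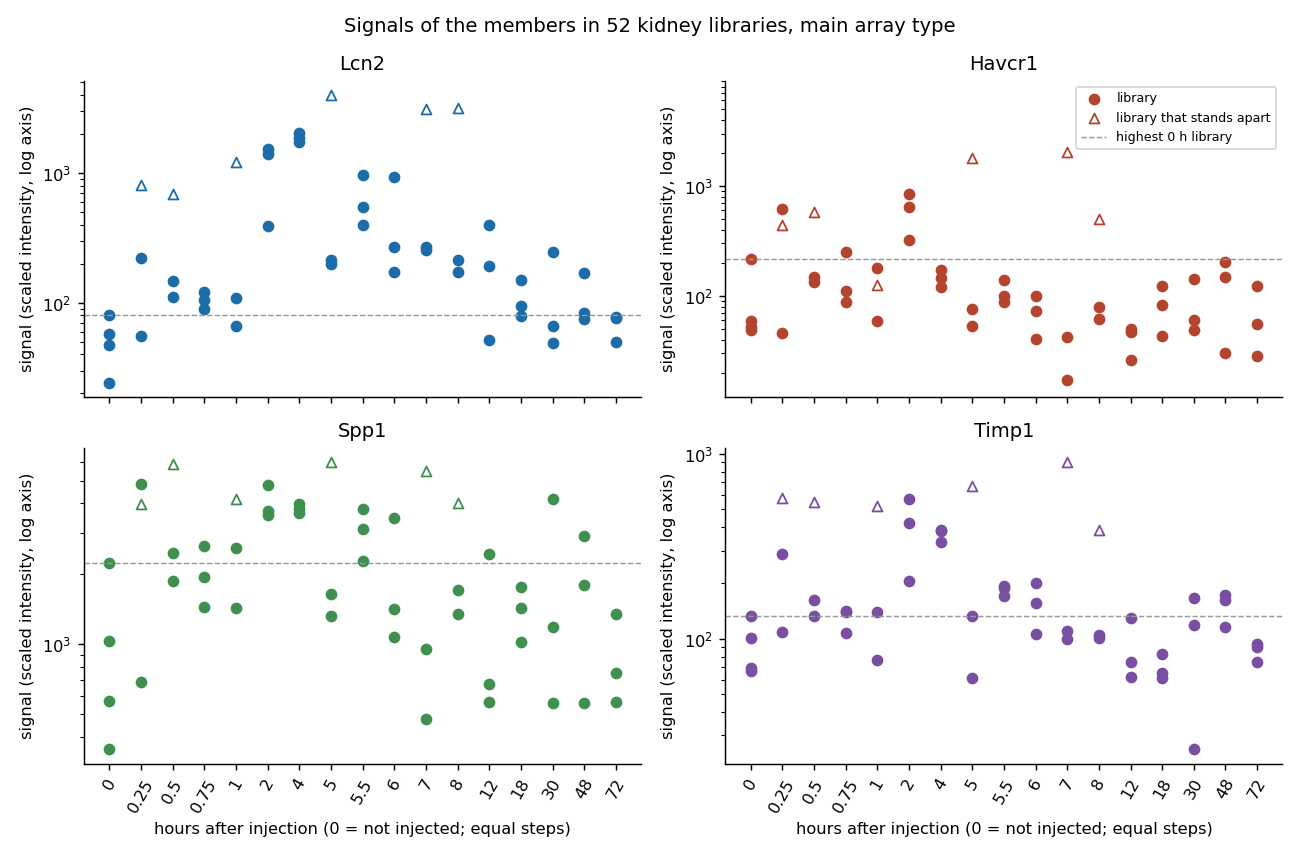
Signal of Lcn2, Havcr1, Spp1 and Timp1 (scaled intensity, log axis) in each of 52 main-type libraries against hours after injection, drawn in equal steps. Circles are libraries, open triangles the 6 libraries that stood apart, and the dashed line is the highest of the 4 untreated libraries. All libraries of 2 and 4 h lie above the line for Lcn2, Spp1 and Timp1, and for Havcr1 only the 3 libraries of 2 h do so in that window.

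Over the windows, 3 of 4 genes were called higher at 2 to 4 h, where 5.17% of 9520 probe sets were called higher. At 5 to 8 h 1 of 4 was called, against 4.98%. No member was called at 0.25 to 1, 12 to 18 or 30 to 72 h in limma, against 0.62%, 0.284% and 0.0% of all probe sets. At an unadjusted p under 0.05 the members counted 3, 0 and 0 in those windows, and all 9520 probe sets counted 634, 544 and 517. None of the 4 was called lower in any window.

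Single times gave few calls among the members. At 2 h 1 of 4 was called (2.61% of all probe sets higher) and at 4 h 3 of 4 (5.71%). At 5, 5.5 and 7 h Lcn2 alone was called (3.18%, 3.29% and 2.26%). No member was called at 0.25, 0.5, 0.75 and 1 h (0.0735%, 0.473%, 0.326% and 0.567%), where 3, 2, 0 and 1 members had an unadjusted p under 0.05 in limma. The same held at 6 and 8 h (3.09% and 1.14%), with 1 member each. At 12, 18, 30, 48 and 72 h no member was called (0.0945%, 0.126%, 0.0%, 0.0% and 0.0%) and none had an unadjusted p under 0.05. With the 6 libraries that stood apart left out, all 4 members passed at 2 h, and Lcn2 passed at 6 h and 7 h. Of all probe sets 4.62%, 4.34% and 1.57% were then called higher at these times. None of the 6 libraries was from 2 or 6 h, so the members' differences there stayed the same while their spread in the fit fell. The choice of the libraries, by a gene that followed Lcn2 and Timp1 within times, lowers that spread. These passes are therefore a description and are not weighed against those shares.

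**Figure D2:**
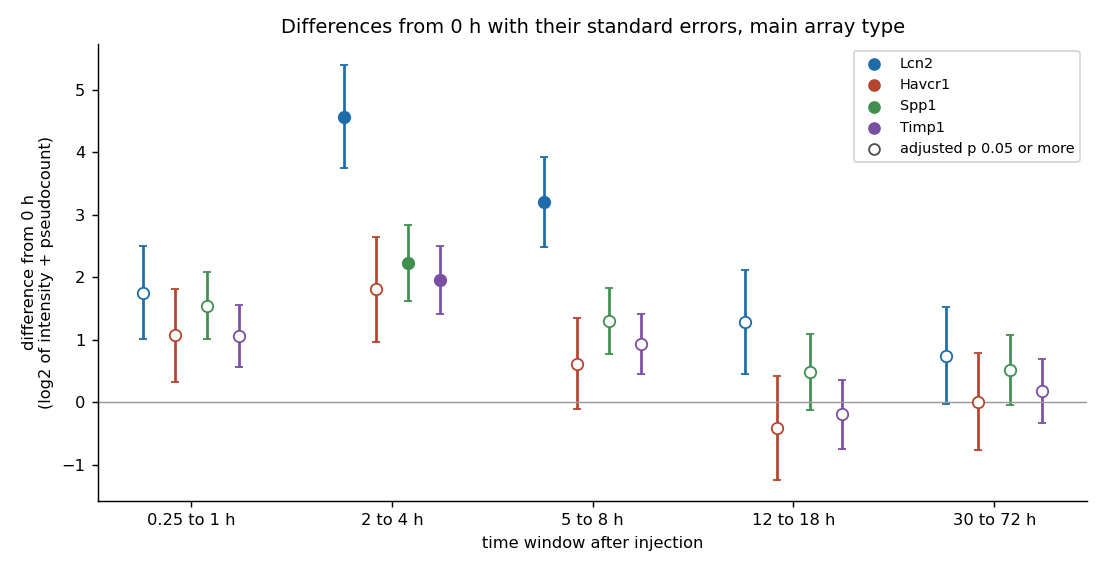
Difference from 0 h in each window after injection on the log2(intensity + pseudocount) scale, with standard errors from the limma fit over 52 libraries. Filled points have an adjusted p under 0.05. Lcn2 is filled at 2 to 4 h (4.57) and 5 to 8 h (3.20), Spp1 and Timp1 at 2 to 4 h (2.23 and 1.96), and Havcr1 nowhere.

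The untreated libraries take part in every difference above, so the 2 to 4 h libraries were also set against the late ones. Against 30 to 72 h Lcn2 was higher by 3.83 ± 0.68 (adjusted p = 5.74e-05), Timp1 by 1.78 ± 0.45 (adjusted p = 0.0040) and Spp1 by 1.71 ± 0.49 (adjusted p = 0.0116). These 3 of 4 calls compare with 8.88% of all probe sets. The Havcr1 difference of 1.80 ± 0.68 had an adjusted p of 0.0568. Against 0.25 to 1 h 1 of 4 members was called (5.47% of all), namely Lcn2, higher by 2.82 ± 0.64 (adjusted p = 0.0025). The corresponding differences of Timp1, Havcr1 and Spp1 were 0.90, 0.74 and 0.68 (adjusted p = 0.165, 0.487 and 0.358), and that of Timp1 passed without the 6 libraries (1.38, adjusted p = 0.00017).

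Between 2 to 4 h and 5 to 8 h no member passed (1.61% of all called higher), with Lcn2 at 1.37, Havcr1 at 1.19, Timp1 at 1.02 and Spp1 at 0.93, and 3 of 4 had an unadjusted p under 0.05. Without the 6 libraries that stood apart the differences were 2.16 for Lcn2, 2.08 for Havcr1, 1.53 for Timp1 and 1.36 for Spp1, and 6.14% of all probe sets were called higher. The choice of those libraries fixes this gain, since it takes high ones out of 5 to 8 h while the libraries of 2 to 4 h with Fga over 1000 stay in. From 2 to 4 h the signals of Lcn2 and Havcr1 went in opposite directions. All 3 libraries of 4 h were above all of 2 h in Lcn2 and below them in Havcr1. The share of all probe sets without overlap between these times was not counted, so this is a description. Neither difference passed the test, 0.98 ± 1.05 for Lcn2 and -1.89 ± 1.06 for Havcr1 (adjusted p = 0.715 and 0.426), and 0.126% of all probe sets were called lower. Spp1 and Timp1 differed by -0.07 and -0.01 between these times.

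The second array type measured the same genes at 0, 2 and 6 h with other probe sets and was scaled apart. Its Lcn2 signals were 42.0, 35.2, 26.7 and 34.3 at 0 h, 897, 344 and 1429 at 2 h, and 776, 77.4 and 159 at 6 h. Havcr1 read 38.0, 21.4, 6.63 and 8.77 at 0 h, 138, 43.4 and 176 at 2 h, and 19.9, 24.0 and 19.6 at 6 h. In both genes every 2 h library lay above every untreated one, and at 6 h this held for Lcn2 but for no Havcr1 library. Spp1 read 1858, 408, 590.0 and 428 at 0 h, 3610.3, 1447 and 3789.8 at 2 h, and 2395, 771 and 1308 at 6 h. The first Timp1 probe set read 202, 188, 179.9 and 154, then 355, 275 and 452, then 235, 171 and 209. The other read 43.9, 34.1, 31.1 and 14.3, then 197, 71.3 and 254, then 101, 38.0 and 48.8. For Spp1 the 2 h and 0 h libraries overlapped, while for both Timp1 probe sets they did not.

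At 2 h on the second type Lcn2, Spp1 and both Timp1 probe sets were called higher, where 4.82% of 5244 probe sets were. Lcn2 rose by 4.34 ± 0.65, 20.3-fold (limma, adjusted p = 0.0024), and Spp1 by 2.02 ± 0.55 (adjusted p = 0.0392). Havcr1 was tested there only through its 2 h libraries, so its difference of 2.48 ± 0.53 is a description. Timp1 rose by 0.96 ± 0.22 and 2.28 ± 0.47 in its pair of probe sets (adjusted p = 0.0191 and 0.0136), so the pair gave the same direction and different sizes. The Spp1 call was lost in 6 of 10 fits that each left out 1 library, with adjusted p up to 0.1001 without 0 h replicate 4. That of the first Timp1 probe set was lost without 0 h replicate 3 or 4 (highest adjusted p = 0.0595 in limma). At 6 h no probe set was called higher (1.56% of all), with Lcn2 at 2.53 (adjusted p = 0.0743) and the others between 0.17 and 1.02, and 1 of 5 had an unadjusted p under 0.05 in limma. From 2 to 6 h none was called lower (0.744% of all), with differences between -0.79 and -2.11. Lcn2 and both Timp1 probe sets had an unadjusted p under 0.05 in limma, and so had Havcr1, as a description. In the F test, which 7.28% of all passed, Lcn2 and both Timp1 probe sets passed and Spp1 did not (adjusted p = 0.0900). The F call of the first Timp1 probe set was lost in 9 of the 10 fits that left out 1 library, and that of the second in 6 of 10.

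**Figure D3:**
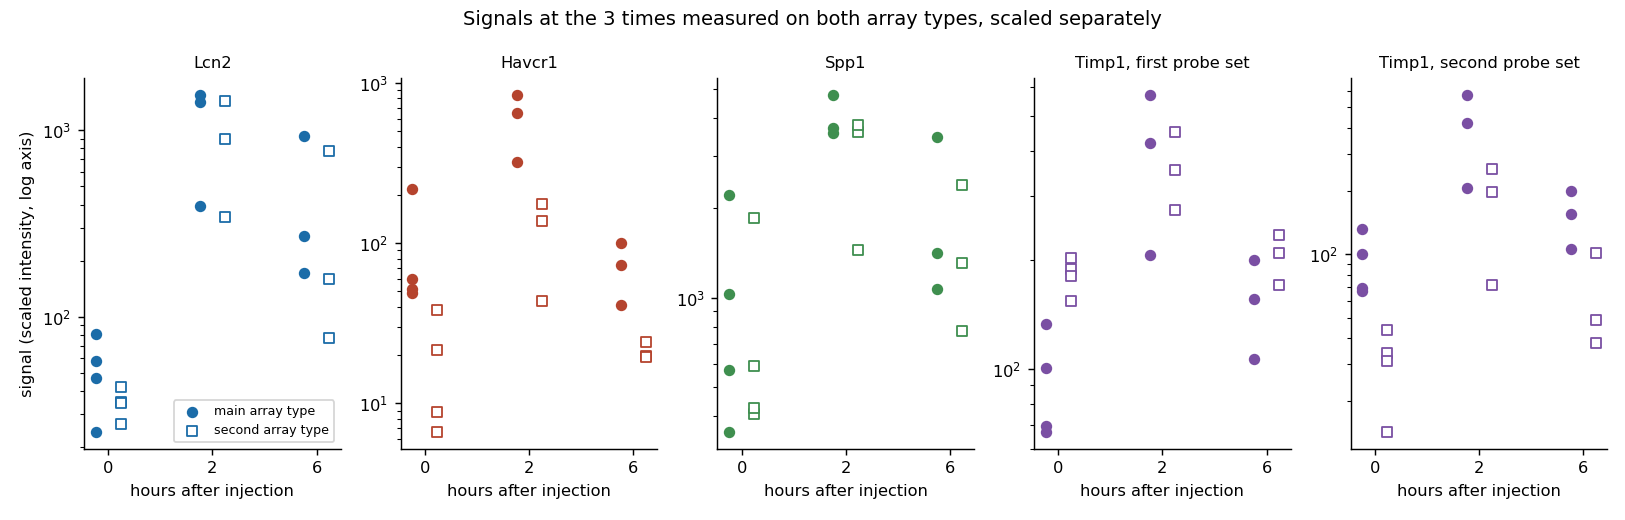
Signals at 0, 2 and 6 h on both array types (scaled intensity, log axis), 1 panel for each probe set of the second type beside the single main-type probe set of that gene. Filled circles are main-type and open squares second-type libraries. Each Lcn2 library at 2 h lies above all untreated libraries of its array type.

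How the members moved together within a time was measured on log2 values centred on the mean of their time, so that the time course itself was removed. The 4 genes varied far more between libraries of the same time than most probe sets. Their SD within times was 1.39 for Havcr1, 1.38 for Lcn2, 1.00 for Spp1 and 0.91 for Timp1, against a median of 0.258 over all tested probe sets, and at least 99.3% of probe sets lay below each. Without the 6 libraries that stood apart the SDs were 0.86, 0.78, 0.87 and 0.53, and at least 96.5% of probe sets lay below.

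The libraries that were high in 1 gene were mostly high in the others. At 11 of 17 times the same library was the highest in all 4 genes, and at 6 of 17 times the same library was the lowest in all 4. Havcr1 and Spp1 shared their highest library at 15 times, Lcn2 and Timp1 at 13, and Lcn2 and Havcr1 at 12. At 0 h replicate 1 was the highest of the untreated libraries in all 4 genes on the main type and in all 5 probe sets of the second. At 2 h replicate 3 was the highest and replicate 2 the lowest in every gene on both types. At 30 and 48 h replicate 1 was the highest in all 4 genes, so shared high libraries also occurred late and among libraries that did not stand apart.

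Over 52 libraries all 6 pairs were correlated within times (two-sided permutation of libraries within times, 100000 draws, adjusted over the 6 pairs). Lcn2 and Timp1 had Pearson r = 0.90 and Spearman rho = 0.84, and Havcr1 and Spp1 had r = 0.84 and rho = 0.87. Havcr1 with Timp1 and Spp1 with Timp1 both had r = 0.82, with rho of 0.80 and 0.84. Lcn2 with Havcr1 and Lcn2 with Spp1 had r = 0.78 each, with rho of 0.77 and 0.76. The adjusted permutation p of r was at most 4e-05 and that of rho at most 2e-05, where 1e-05 is the smallest unadjusted p these draws can give. Leaving out the 2 libraries farthest from the median of the gene named first gave r between 0.73 and 0.88.

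Since 6 libraries stood apart, the same was computed over the other 46. Each r was smaller there, from 0.61 (Lcn2 with Havcr1) to 0.80 (Havcr1 with Spp1), with adjusted permutation p between 6e-05 and 0.0024. Lcn2 with Timp1 changed most, from 0.90 to 0.67. Spp1 with Timp1 had r = 0.75, Lcn2 with Spp1 0.71 and Havcr1 with Timp1 0.63. From 12 h on, over 15 libraries, Havcr1 with Spp1, Spp1 with Timp1 and Lcn2 with Spp1 still passed (r = 0.81, 0.80 and 0.77, adjusted permutation p = 0.0048, 0.010 and 0.038). There Lcn2 with Timp1, Lcn2 with Havcr1 and Havcr1 with Timp1 did not (r = 0.59, 0.49 and 0.41, adjusted permutation p = 0.15, 0.077 and 0.15).

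**Figure D4:**
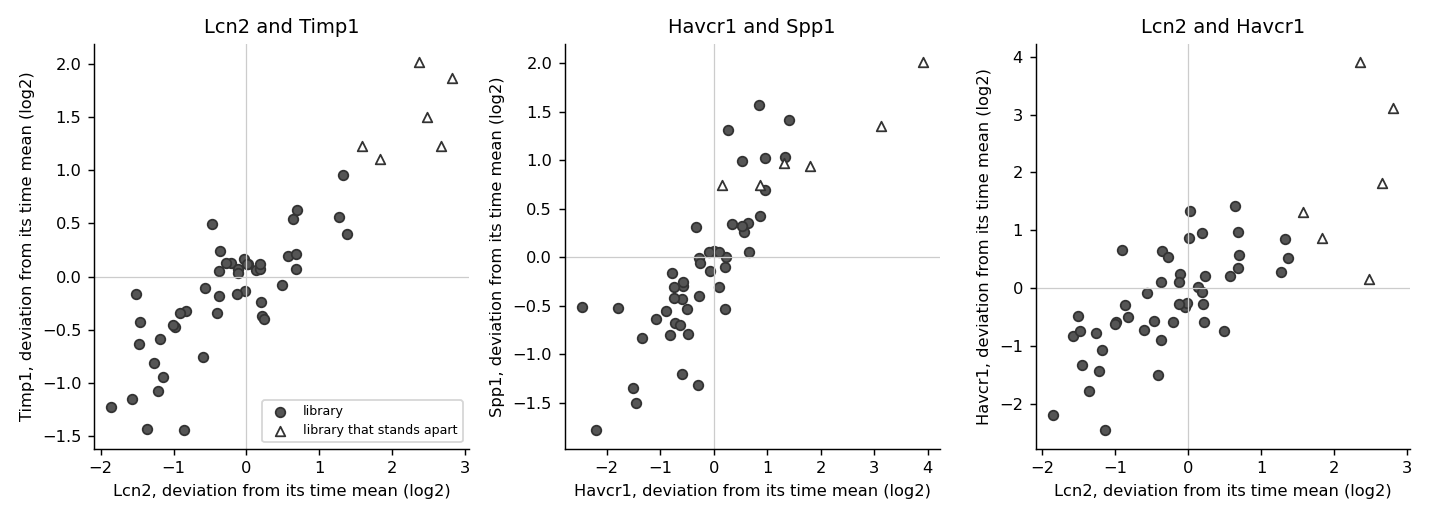
Deviation of each library from the mean of its time (log2) for 3 pairs of genes over 52 main-type libraries. Triangles are the 6 libraries that stood apart. The points run from the lower left to the upper right in each panel (r = 0.90, 0.84 and 0.78), and the triangles take the upper right end for Lcn2 with Timp1.

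The library numbers of the second type could be set against those of the main type at 0, 2 and 6 h, though the labels do not say that equal numbers mean the same RNA. Over these 10 libraries the within-time deviations of Lcn2 on both types had r = 0.93, and those of Timp1 had 0.95 and 0.92 (exact permutation within times, 864 arrangements, adjusted p = 0.0058 over 5 relations, rho 0.94 to 0.96). Havcr1 and Spp1 had r = 0.78 each (exact permutation, adjusted p = 0.0324, rho 0.77 and 0.64). Without the 2 libraries farthest from the median these fell to 0.55 and 0.37, so they rest on those libraries, while Lcn2 kept 0.88 and Timp1 0.89 and 0.84.

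Among all tested probe sets, those most like a member within times are given as a description, with r over 52 libraries that share array and RNA. For Lcn2 these were Cp (ceruloplasmin, 0.91), Marcksl1 (0.91), Timp1 (0.90) and the fibrinogen genes Fga (0.90) and Fgg (0.89). For Havcr1 they were S100a10, an annexin partner (0.90), Spp1 (0.84), Fgg (0.84), the glutathione peroxidase gene Gpx2 (0.84) and Cd24 (0.84). For Spp1 they were Havcr1 (0.84), Timp1 (0.82), the secreted chaperone gene Clu (0.80), Cp (0.80) and Cpne8 (0.79). For Timp1 they were Cpne8 (0.90), Lcn2 (0.90), Fgg (0.88) and both probe sets of Fga (0.88 each). Counted over all probe sets, with or without a symbol, Spp1 had rank 3 for Havcr1 and Havcr1 had rank 1 for Spp1.

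The nearest genes of all 4 members changed without the 6 libraries. For Lcn2 they became the matrix protein gene Mgp (0.81), Marcksl1 (0.79), Cp (0.75), Cct3 (0.71) and the monocyte receptor gene Cd14 (0.71), with no fibrinogen gene among the 5. Havcr1 had Clu (0.80), Spp1 (0.80), S100a10 (0.76), the chemokine gene Ccl20 (0.75) and the tight junction gene Cldn4 (0.75). Spp1 had Havcr1 (0.80), S100a10 (0.76), S100a4 (0.75), Clu (0.75) and Timp1 (0.75). Timp1 had Spp1 (0.75) and then Bclaf1, Nsmce1, Akap8 and Cct3 (0.71, 0.71, 0.71 and 0.70). Over all 52 libraries the probe sets with r over 0.6 were 3.47% for Lcn2, 2.97% for Havcr1, 1.49% for Spp1 and 3.70% for Timp1. Over the other 46 they were 0.368%, 0.221%, 0.368% and 0.798%.

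Across the 17 time means the nearest genes were others. The time course of Lcn2 was most like that of Cp (r = 0.98), the lipase genes Pla1a (0.96) and Lpl (0.94), the complement gene C3 (0.94) and the cytokine receptor gene Il6st (0.94). Spp1 was most like the transcription factor gene Cebpb (0.90), Gadd45b (0.89), Rasd1 (0.89), Cebpd (0.89) and Resf1 (0.88). For Timp1 the nearest were S100a9 (0.93), Cpne8, Kctd1 and Ptpn1 (0.92 each) and Fga (0.90), and for Havcr1 Cpne8, Pvr and Klf6 (0.86 each), Cars1 (0.85) and Tbkbp1 (0.84). Between members the time means had r from 0.55 (Lcn2 with Havcr1) to 0.84 (Spp1 with Timp1), over times that share 1 fit and drug course.

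Of 38 other injury and repair genes of tubules listed, 26 were tested. At 2 to 4 h 10 were higher and 1 lower, with a median of 0.54 against -0.07 over all tested probe sets, where 5.17% were called higher and 4.8% lower. Without the 6 libraries 13 were higher and 1 lower, against 7.05% and 7.55% of all. Igfbp1, which binds insulin-like growth factors, rose by 3.82 ± 0.69, Ccn2, a connective tissue growth factor, by 3.16 ± 0.22, Cdkn1a, a cell cycle inhibitor, by 2.09 ± 0.36, and Vcam1, a leukocyte adhesion receptor, by 1.96 ± 0.34. Igfbp1 and Cdkn1a are also known targets of glucocorticoids. The urokinase gene Plau fell by 0.61 ± 0.20 (adjusted p = 0.0451). Havcr1's and Spp1's neighbour Clu rose by 0.85 ± 0.27 (adjusted p = 0.0395), and of 4 keratins of tubule epithelium Krt18 rose by 0.63 ± 0.21 (adjusted p = 0.0463), while Krt8 (-0.10), Krt7 (-0.15) and Krt19 (0.40) did not pass. At 5 to 8 h 8 were higher and 1 lower, against 4.98% and 4.73% of all.

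**Figure D5:**
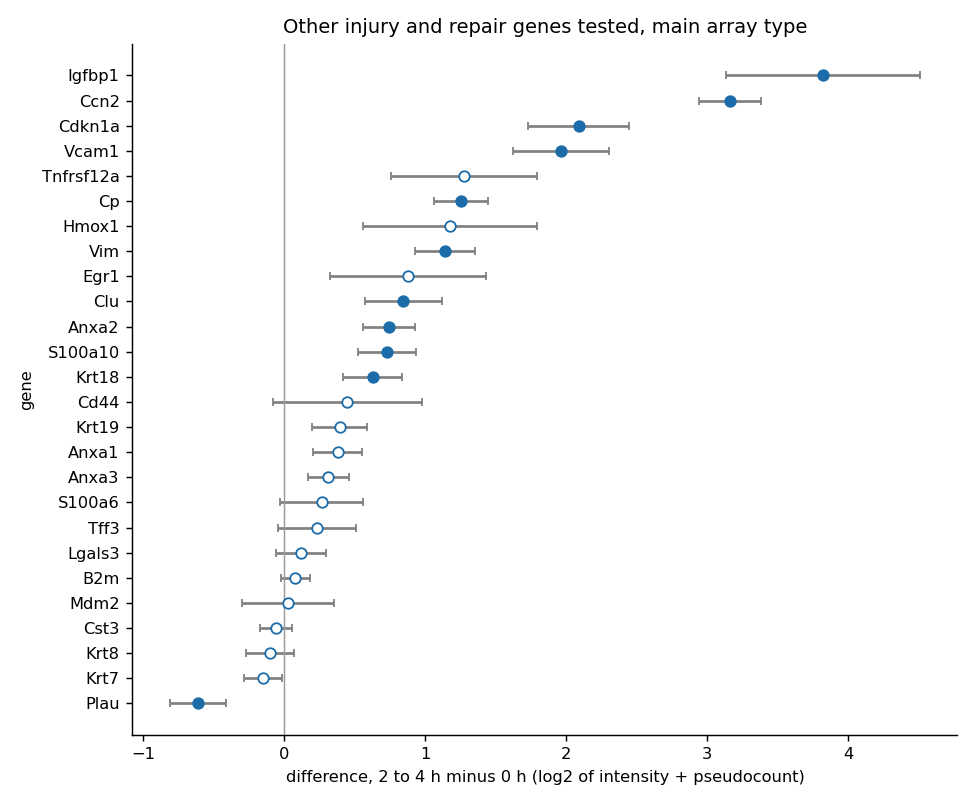
Difference between 2 to 4 h and 0 h (log2 of intensity + pseudocount) with its standard error for the 26 other injury and repair genes tested. Filled points have an adjusted p under 0.05. Igfbp1 (3.82) and Ccn2 (3.16) lie highest, 10 filled points lie above 0 and Plau (-0.61) lies below.

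Tubule genes known to fall in injury mostly missed the threshold against 0 h. Of 20 tested, 1 was higher and 1 lower at 2 to 4 h, with a median of -0.04. The lower gene was the glucose transporter gene Slc5a2 (-0.66 ± 0.18, adjusted p = 0.016) and the higher was Cubn, which encodes the receptor cubilin (0.49 ± 0.15, adjusted p = 0.024). At 5 to 8 h 1 was higher and 3 were lower, against 4.98% and 4.73% of all, and without the 6 libraries 3 were higher and 1 lower, against 5.22% and 4.18%. Set against 30 to 72 h, 1 was higher and 7 were lower at 2 to 4 h, while 10.6% of all probe sets were lower, and without the 6 libraries the counts were again 1 and 7, with 13.7% of all lower. The lower genes included Calb1, a calcium buffer of the distal tubule (-1.16 ± 0.25), and the organic anion transporter gene Slc22a6 (-0.54 ± 0.13). The summed signal of 7 proximal tubule markers was 16741 to 19584 at 0 h and 14642 to 19349 at 2 to 4 h, and these ranges overlapped.

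Of 11 tested genes that act upstream of Lcn2 or encode its receptors, 4 were higher at 2 to 4 h, where 5.17% of all probe sets were, and 6 without the 6 libraries, where 7.05% were. Nfkbia, the inhibitor of NF-kappaB, rose by 3.86 ± 0.42, Cebpb by 3.48 ± 0.56, Cebpd by 2.33 ± 0.46 and the receptor subunit gene Il6st by 1.47 ± 0.25. The untreated means of Nfkbia and Cebpb lay under the filter. Nfkbia, Cebpb and Cebpd are themselves glucocorticoid-induced. Of 20 genes listed as such 17 were on the array and 15 were tested, and all 15 were higher. Per1, another of the 15, also had an untreated mean under the filter and reached its level at 11 of 17 times. The count is thus a description. The interleukin gene Il1b did not pass (0.88 ± 0.46, adjusted p = 0.240). The Lcn2 receptor genes Slc22a17 and Lrp2 had differences of -0.26 and -0.04 (adjusted p = 0.189 and 0.867).

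Partners of the other members mostly missed the threshold at 2 to 4 h, where 5.17% of all probe sets were called higher. Among 5 tested receptors and partners of Spp1 the transglutaminase gene Tgm2 was higher (1.24 ± 0.39, adjusted p = 0.0320), and Cd44 had 0.45 ± 0.53 (adjusted p = 0.634). Among 12 targets and relatives of Timp1 the metalloproteinase gene Mmp11, with an untreated mean under the filter, was higher (1.81 ± 0.29), and Timp2, Timp3, Mmp2 and Mmp14 had differences of 0.27, -0.09, 0.10 and -0.10 that did not pass. Of 7 relatives of Havcr1 and shedding enzymes none was called, with Adam10 at -0.49 (adjusted p = 0.132). Of 17 acute phase genes listed 15 were on the array and 5 were tested. Of these 5, 4 were higher, with Fga at 5.27 and Fgg at 4.76. Both had untreated means under the filter and reached its level at 14 and 9 of 17 times. That count is therefore a description and is not weighed against the 5.17%.

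Some markers of leukocytes were higher in the same libraries. Of 15 neutrophil genes listed 8 were on the array, 3 with a mean signal under 2 pseudocounts and 1 bright enough to be tested, and none was at 0. Their summed signal was 106 to 149 at 0 h, 304 to 674 at 2 to 4 h, 111 to 1209 at 5 to 8 h and 120.3 to 231 at 30 to 72 h. In the 6 libraries that stood apart it was 415 to 1209. S100a9, a calcium-binding protein of neutrophils and monocytes, read 4.15 to 23.1 at 0 h, 169 to 426 at 2 to 4 h and 243 to 774 in those 6 libraries, and S100a8 read 0.406 to 6.39, 42.5 to 141 and 74.6 to 267. S100a9 reached the filter level at 8 of 17 times, and without the 6 libraries it fell under the filter, so no test of its difference is given. The other 6 neutrophil genes read at most 83.5 in these groups, and for each of them the ranges at 0 h and 2 to 4 h overlapped. Mmp9 read 26.5 to 48.8 at 0 h and 24.6 to 48.4 at 2 to 4 h. Cxcr2 read 23.1 to 42.2 and 4.00 to 42.4, and Mmp8 16.1 to 33.3 and 10.4 to 41.4. The higher sum at 2 to 4 h thus came mainly from S100a8 and S100a9 and not from the list as a whole.

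The summed signal of 9 macrophage and monocyte markers was 1543 to 1861 at 0 h, 2522 to 2741 at 2 to 4 h, 2138 to 3302 in the 6 libraries and 2174 to 3267 at 30 to 72 h. At 2 to 4 h 5 of 8 tested were higher, where 5.17% of all probe sets were, led by Cd14 (1.55 ± 0.33) and C1qb (1.49 ± 0.22). The sum of 7 lymphocyte markers was 188 to 242 at 0 h, 115 to 233 at 2 to 4 h and 149 to 199 in the 6 libraries. Sums of 9 liver markers were 651 to 891 in untreated kidney, 536 to 644 in the 6 libraries and 387 to 1822 at 2 to 4 h. Those of 7 adipose and adrenal markers were 217 to 314 at 0 h and 203 to 723 at 2 to 4 h, and 539 in 7 h replicate 3. In both sums the highest 2 to 4 h library was 2 h replicate 2, and the next read 612 and 269. Without that library the differences at 2 to 4 h were 4.89 for Lcn2, 2.27 for Spp1 and 2.16 for Timp1 (adjusted p = 0.000132, 0.018 and 0.0115). Podocyte marker sums were 788 to 1086 at 0 h and 498 to 672 at 2 to 4 h. There 3 of 4 podocyte markers were lower, and 4.8% of all probe sets were. Wt1, counted among the 3, lay under the filter level at 2 and 4 h and reached it at 12 of 17 times. The count is therefore a description. What part leukocytes had in the signals of Lcn2, Timp1 and the other members was not tested.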

How the data were processed

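Total RNA of rat kidney was measured on Affymetrix arrays of 2 types, and samples were grouped by the time in their titles. The authors deposited 1 intensity per probe set on a linear scale, scaled per array, as the deposited intensities show. The trimmed means were 150.03 to 150.04 on the main type. How probes were summarised into probe sets is not stated. No column was left unused.

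A pseudocount equal to a table's 10th percentile (7.63 and 3.56) was added before log2 was taken. The duplicate array of 5 h replicate 1 was averaged with its partner. After control probe sets were removed, those whose mean log2 reached the 40th percentile were tested, 9520 and 5244. limma 3.58.1 in R 4.3.3 fitted all times of a type together (lmFit, then eBayes with trend), with Benjamini-Hochberg adjustment over all probe sets tested and a threshold of 0.05. Windows are unweighted means of their times. On simulated data 88 of 100 changes of log2 1 and all 100 of log2 2 were recovered at 2 to 4 h, with 9 false calls. The changes were made in probe sets drawn at random, with independent noise. These rates do not carry over to the members, whose SD within times was 0.91 to 1.39 against a median of 0.258. Symbols came from the platform annotation, updated by gene identifier to RefSeq names of GRCr8 (12783 main-type and 7006 second-type probe sets with 1 symbol). SciPy 1.17.1 and NumPy 2.4.6 served the permutation tests.

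The members, the lists and the tests were chosen with earlier results of these data known. The genes named beside the members are up to 4 per list that passed with the largest difference at 2 to 4 h, known partners of a member, and the 5 with 1 symbol most like each member. Marcksl1, Mgp and the other nearest genes without the libraries that stood apart, Krt7, Krt8, Krt18, Krt19, Clu, Plau and Mmp9 were added after their values were seen. Library numbers were not taken as pairs, since the labels give them no shared animal or batch. Same-numbered libraries deviated together more often than others, with r over 0.1 in 153 of 408 pairs against 130 of 816. A batch behind the numbers was not tested, and fits with the number as a block are given further on. Alternatives changed the pseudocount, the filter, the scaling, the block, the weights, the libraries or the times fitted.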

Additional observations from a re-analysis of the deposited data

Results flagged for a closer look

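The Havcr1 signals of the 4 untreated main-type libraries were flagged because 1 library lay far from the others. Replicate 1 read 217 against 48.7 to 59.6 in the other 3, so the gap on the log2 scale took 0.873 of the whole range, above the limit of 0.829 for 4 samples. In all 9 such groups were examined, and chance flags about 1 in 20. The same replicate was also the highest untreated library in Lcn2, Spp1 and Timp1.

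Differences between times after injection were flagged where the test of that difference passed. Lcn2 was higher at 2 to 4 h than at 0.25 to 1 h by 2.82. Compared with 30 to 72 h, the 2 to 4 h libraries were higher by 3.83 in Lcn2, by 1.78 in Timp1 and by 1.71 in Spp1 on the log2 scale.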

How the results depend on the processing

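Lcn2 kept its direction and its call at 2 to 4 and 5 to 8 h under every alternative tried, its 5 to 8 h value being 2.42 without the 6 libraries that stood apart. Quantile normalization and 4 times the pseudocount changed no call in a window, an F test or a pair.

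With the library number as a replicate block, in which 0 h replicate 4 has a number of its own and drops out, Spp1 and Timp1 gave 1.83 and 1.83 at 2 to 4 h (adjusted p = 0.0664 and 0.0603), and Havcr1 gave -0.19 at 30 to 72 h. On the second type the block gave F tests of adjusted p = 0.0652 for the first Timp1 probe set and 0.0203 for Spp1. The F test of Havcr1 there (adjusted p = 0.0638) is a description, since the probe set was tested only through its 2 h libraries. The pairs kept their calls under the block, at r of 0.79 to 0.90. Among 51 libraries that share a number with another, 34 were closest to their own number. This likeness is read from the data, since the labels give the numbers no meaning. The fits and the permutations without the block take no account of it. An r over 0.1 occurred in 153 of 408 same-numbered pairs (median 0.06) and in 130 of 816 others (median -0.03). The single-time calls of Lcn2 at 5, 5.5 and 7 h and of Spp1 and Timp1 at 4 h were also lost under the block. Under the block 35 and 0 probe sets were called higher and lower at 0.25 to 1 h, against 59 and 4.

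Array weights, which gave 7 h replicate 3 and 5 h replicate 2 the least weight, made Spp1 pass at 0.25 to 1 h (1.74) and Havcr1 at 2 to 4 h against 0 h (2.07) and against 30 to 72 h (1.87). The F tests then gave adjusted p = 0.00112 for Spp1, 6.47e-05 for Timp1 and 0.00171 for Havcr1, and Spp1 differed by 0.013 between 4 and 2 h. On the second type they made Lcn2 at 6 h (2.48) and the F test of Spp1 (adjusted p = 0.0385) pass. Havcr1 there was -2.49 at 6 h against 2 h, a description, since it was tested only through its 2 h libraries. They raised the counts higher and lower at 2 to 4 h from 492 and 457 to 1025 and 1378, and the F test count from 1535 to 4607. Without the filter Spp1 at 2 h on the second type, at 2.02, had adjusted p = 0.0551. When arrays lettered b or c were left out, Spp1 at 2 to 4 h against 30 to 72 h was 1.51 (adjusted p = 0.132), with 945 calls in the F test. With each window fitted with 0 h alone Havcr1 passed at 2 to 4 h (1.80).

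Without the 6 libraries Havcr1 passed at 2 to 4 h against 0 h (1.80) and against 30 to 72 h (1.80). The F tests gave adjusted p = 0.000194 for Timp1 and 0.0095 for Havcr1, and Havcr1 was -0.27 at 5 to 8 h. These calls are a description, since the choice of the libraries lowers the spread of the members. Probe sets lower at 2 to 4 h numbered 719 then, and those higher at 2 to 4 h than at 5 to 8 h rose from 153 to 585. From 12 h on the pairs of Lcn2 with Havcr1 and Timp1 and of Havcr1 with Timp1 had r = 0.49, 0.59 and 0.41. That range holds 15 libraries.

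Leaving out each library in turn moved Spp1 at 2 to 4 h between 1.83 and 2.70 and Timp1 between 1.80 and 2.16. Havcr1 ran from 1.55 to 2.00 at 2 to 4 h against 30 to 72 h, from -0.61 to 0.059 at 12 to 18 h and from -0.19 to 0.48 at 30 to 72 h, and the adjusted p of the Timp1 F test from 0.0447 to 0.195. Between 4 and 2 h Spp1 ran from -0.15 to 0.059 and Timp1 from -0.42 to 0.30. On the second type Spp1 ran from 1.78 to 2.52 and the first Timp1 probe set from 0.78 to 1.14 at 2 h, and Lcn2 from 1.60 to 3.24 at 6 h. From 2 to 6 h Havcr1 ran from -2.69 to -1.90, Lcn2 from -2.74 to -1.10 and the Timp1 pair from -0.97 to -0.61 and from -1.90 to -1.005. The F tests there ran from adjusted p = 0.0214 to 0.203 for Spp1, and 0.0129 to 0.0989 and 0.0048 to 0.0872 for the Timp1 pair. The F test of Havcr1 there ran from adjusted p = 0.0055 to 0.0934, as a description. A pair with the next brightest probe set could not be computed, since the main type holds 1 for each gene. Where no construction is named, the cause of a change was not tested.

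The limits are few libraries per time, untreated libraries at 0 h alone, a pseudocount that pulls in dim values, as for Havcr1 on the second type (6.63 at 0 h), and 6 libraries whose history is not in the labels.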

Other observations

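Vessel and glomerular genes also moved at 2 to 4 h against 0 h, given as log2 differences ± SE. Of all probe sets tested, 5.17% were called higher and 4.8% lower there. Of 6 endothelial markers tested 3 fell, namely the growth factor receptor gene Kdr by 1.23 ± 0.25, Tie1 by 0.84 ± 0.20 and Egfl7 by 0.68 ± 0.15 (limma, adjusted p = 0.0008, 0.0034 and 0.0015, 6 libraries against 4). The adhesion gene Esam rose by 1.01 ± 0.23, while Pecam1 and Flt1 had differences of 0.29 and 0.04 that did not pass. Of 4 podocyte markers Synpo, Wt1 and Podxl fell by 0.90 ± 0.14, 0.55 ± 0.17 and 0.52 ± 0.17, and Nphs1 had 0.17 (adjusted p = 0.671). The Wt1 value is a description, since its means at 2 and 4 h lay under the filter. Among fibroblast and pericyte markers the matrix genes Dcn and Col3a1 had differences of 0.96 ± 0.34 and 0.48 ± 0.16 that did not pass (adjusted p = 0.061 and 0.0567).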
